A study of Solanum lycopersicum with 18 samples.

Results

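Tomato leaf RNA was searched for named genes that make or split sucrose, or that begin the synthesis of raffinose sugars. The genes were taken from the deposited expression table by symbol, namely the LIN, TIV and Wiv invertases, the SUS sucrose synthases, the sps sucrose phosphate synthases and the GolS galactinol synthases. They also had to average 1 FPKM or more in some group of libraries, where FPKM is a fragment count scaled by transcript length and by library depth. Of the 23348 genes listed, 10 had such a symbol and 6 of those reached the floor, namely Wiv-1, LIN8, SUS4, sus3, sps and GolS2. Among the 10, GolS2 was the gene nearest above the floor, with a highest group mean of 4.1 FPKM, and lin9 the nearest below it, with 0.837 FPKM.

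Sucrose is the sugar that leaves export. Sucrose phosphate synthase makes its phosphorylated precursor, whereas invertases split sucrose into glucose and fructose, and sucrose synthases convert it reversibly to fructose and a nucleotide sugar. Cell wall invertases act outside the cell, vacuolar invertases inside it, and small inhibitor proteins can block both. Galactinol synthase starts the raffinose family of sugars, which builds up in the leaves of many plants in the cold. In tomato, Wiv-1, which RefSeq also lists as LIN6, is a cell wall invertase known to be induced by wounding and by sugars.

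The leaves came from the tomato (Solanum lycopersicum) lines Micro-TOM, a dwarf laboratory cultivar called MT here, and Micro-TOM-EX, called EX here, whose suffix the labels do not explain. Each line was sampled at 0, 4 and 12 h, with 3 libraries per line and time and 18 in all, from plants in soil pots in a greenhouse with 16 h of light. The growth protocol describes a cold treatment of 0, 4 or 12 h for both lines. The stress label, however, is control throughout MT and cold throughout EX, also in EX at 0 h. If that label holds, the MT course is an untreated one, and line and cold cannot be told apart. Time of day also moves with the hours of treatment and cannot be told apart from them. Whether the libraries within a group are from different plants is not in the labels, so the p-values below measure the spread between libraries, which may be technical.

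FPKM totals were between 758518 and 833908 per library, and 1 fragment was worth about 0.03 FPKM in each of them for transcripts of 1900 to 2200 bases. The leaf markers fitted the label, since 16 chlorophyll-binding and Rubisco small subunit genes summed to 32700 to 90200 FPKM, while 2 of 3 pollen and anther genes found, LAT52 and LAT59, did not exceed 0.29 and 0.11 FPKM. The third, LAT61, was at 54.04 to 99.89 FPKM, so that list was not uniformly low. MT 0 h library 1 and MT 4 h library 1 stood apart from the rest on the second principal component of all genes, with scores of 61.9 and 52.6 against -40.7 to 14.3 elsewhere. Several results below are also given without this pair. These are bulk leaf samples, in which fewer cells of a type and less RNA per cell cannot be told apart.

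Wiv-1 (gene identifier 543502) occupied chromosome 10 from 63110431 to 63115940 on the minus strand. LIN8 (544175) followed it on the same strand from 63122909 to 63127436, with 6968 bases between them and 0 other listed genes in the gap. SUS4 (101253025) lay on chromosome 9 from 72379233 to 72385697 on the plus strand. Chromosome 7 held sus3 (543731), from 55976826 to 55982491 on the minus strand, and sps (543516), from 2439032 to 2447543 on the plus strand. GolS2 (100316891) lay on chromosome 2 from 48012359 to 48013893 on the minus strand. These coordinates are those of the deposited table, which names no genome build.

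Averaged over the 18 libraries, the FPKM level fell from sps at 36.2 through sus3 at 12.6, Wiv-1 at 10.9, LIN8 at 7.38 and SUS4 at 7.08 to GolS2 at 3.1. FPKM is scaled by transcript length, so these levels can be set beside each other. The gene sps was the highest of the 6 in 17 of 18 libraries and GolS2 the lowest in 16 of 18. sus3, Wiv-1, LIN8 and SUS4 overlapped in their ranges over the libraries, so their order among themselves is not clear. The spread across conditions had a different order, since the 6 group means of Wiv-1 spanned 2.45 on the log2(FPKM + 1) scale, those of LIN8, sus3 and SUS4 between 0.88 and 0.99, those of GolS2 0.62 and those of sps 0.34.

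**Figure D1:**
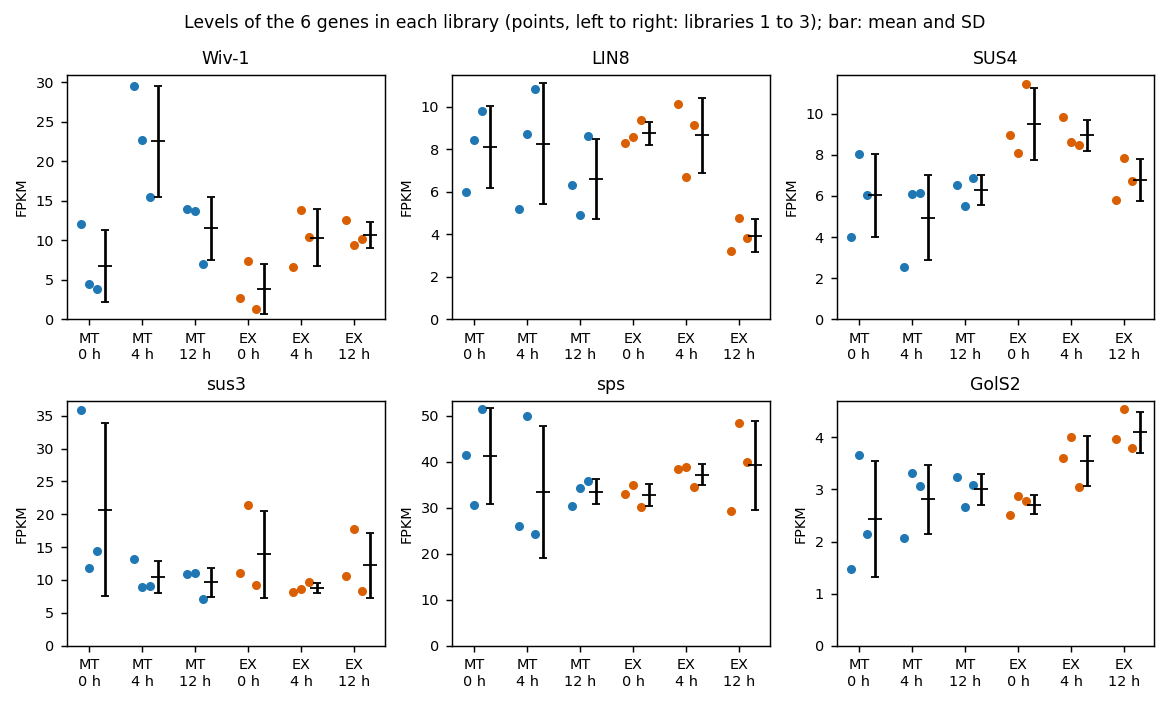
FPKM of the 6 genes (y axis, linear, 1 panel per gene) in each library (points) of the 6 groups (x axis), with the group mean and SD. Wiv-1 is lowest at 0 h and highest in MT at 4 h (22.5 FPKM), LIN8 is lowest in EX at 12 h (3.93 FPKM), and the group means of sps lie between 32.7 and 41.2 FPKM.

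Wiv-1, the wound-inducible cell wall invertase, rose in MT at 4 h and in EX at 12 h. Its FPKM in libraries 1, 2 and 3 of MT was 12.02, 4.5 and 3.81 at 0 h, 29.47, 22.68 and 15.48 at 4 h, then 13.92, 13.73 and 6.94 at 12 h. In EX the values were 2.73, 7.42 and 1.31 at 0 h, 6.59, 13.78 and 10.39 at 4 h, then 12.57, 9.38 and 10.16 at 12 h. All 3 MT libraries at 4 h were above all 3 at 0 h. All 3 EX libraries at 12 h were also above all 3 at 0 h. MT at 12 h and EX at 4 h each overlapped with their 0 h group. Such separation, in either direction, was common among all genes tested. Against 0 h it was seen for 22.3% in MT at 4 h and 33.8% at 12 h. In EX it was 35.6% at 4 h and 36.5% at 12 h. Between the lines it was 21.6%, 22.1% and 12.2% at 0, 4 and 12 h. These shares belong beside every such separation given below.

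The group means of Wiv-1 were 6.78 ± 4.55 FPKM (SD, n = 3) in MT at 0 h and 22.5 ± 7 FPKM at 4 h. The difference was 1.70 on the log2(FPKM + 1) scale, with a standard error of 0.45 and a 95% interval of 0.74 to 2.66 (limma, Benjamini-Hochberg adjusted p = 0.0199 over 17870 genes). All differences below are on this scale, where changes of low genes come out too small, and a gene is said to rise or fall only at an adjusted p under 0.05. In MT at 12 h the mean was 11.5 ± 3.98 FPKM, and the difference of 0.78 from 0 h did not pass (limma adjusted p = 0.233). The MT call rested on few libraries: the adjusted p was 0.0539 without MT 0 h library 2, 0.0845 without MT 0 h library 3, 0.0744 without MT 4 h library 1 and 0.0805 in a fit of the compared libraries only. Without the pair that stands apart it was 0.0245, with a difference of 1.94.

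In EX, Wiv-1 went from 3.82 ± 3.2 FPKM at 0 h to 10.3 ± 3.6 FPKM at 4 h and 10.7 ± 1.66 FPKM at 12 h (SD, n = 3 each). The difference at 12 h was 1.48, with a standard error of 0.45 and an interval of 0.52 to 2.44 (limma adjusted p = 0.0351). At 4 h it was 1.38, with an interval of 0.42 to 2.34, and did not pass (limma adjusted p = 0.063). EX at 12 h differed from EX at 4 h by 0.10 (limma adjusted p = 0.978), so a later rise in EX is not shown. The 12 h call was lost on leaving out any of 5 of the 6 libraries compared: the adjusted p was 0.11 without EX 0 h library 1 and 0.172 without EX 0 h library 3. It was 0.104, 0.0633 and 0.0873 without EX 12 h library 1, 2 and 3. At 4 h the call was gained without EX 0 h library 2, with a difference of 1.89 (limma adjusted p = 0.0104), and also without the pair of MT libraries that stands apart (limma adjusted p = 0.0355).

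Because each line alone gave little precision, the mean of both lines was also compared between times, a comparison added after the values were seen. Wiv-1 rose by 1.54 at 4 h (interval 0.86 to 2.22, limma adjusted p = 0.00232) and by 1.13 at 12 h (interval 0.45 to 1.81, limma adjusted p = 0.0148). Both held on leaving out each library in turn and in the other alternatives run. Among all genes, 24.5% were called at 4 h and 28.9% at 12 h in these comparisons, so a call by itself was common. No difference between lines passed: at 4 h the 3 EX libraries were all below the 3 MT libraries, by 1.07 in the mean (interval -2.03 to -0.11, limma adjusted p = 0.318), and the line by time interaction at 4 h was -0.32 (limma adjusted p = 0.966).

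Since Wiv-1 responds to wounding, wound markers are given beside it. The 3 found were ARG2, an arginase, LAPA1, a leucine aminopeptidase, and cevi57, which did not exceed 0.09 FPKM. Their summed FPKM over the libraries of a group was 9.66 to 17.7 in MT at 0 h, 13.7 to 71.3 at 4 h and 34.6 to 95.4 at 12 h. The EX sums were 20.1 to 57.8 at 0 h, 24.6 to 82.8 at 4 h and 41.2 to 74.7 at 12 h. In MT every library at 12 h was above every one at 0 h in this sum, and the sums at 4 h overlapped with those at both other times. The part of wounding in the Wiv-1 result was not tested.

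LIN8, the neighbouring cell wall invertase gene, fell in EX at 12 h. Its FPKM in EX libraries 1, 2 and 3 was 8.31, 8.56 and 9.35 at 0 h, 10.13, 6.71 and 9.15 at 4 h, then 3.21, 4.75 and 3.83 at 12 h. In MT it was 6.01, 8.44 and 9.81 at 0 h, 5.21, 8.71 and 10.85 at 4 h, then 6.31, 4.91 and 8.62 at 12 h. The 3 EX libraries at 12 h were below every other library of the series, while the MT groups overlapped at all times.

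The EX mean of LIN8 was 8.74 ± 0.543 FPKM at 0 h and 3.93 ± 0.775 FPKM at 12 h (SD, n = 3). The difference of -0.99 had a standard error of 0.24 and an interval of -1.51 to -0.48 (limma adjusted p = 0.011). It was called in every alternative run and on leaving out each library compared, with adjusted p up to 0.0479. At 4 h in EX the difference from 0 h was -0.03 (limma adjusted p = 0.97), and that of 12 h against 4 h, -0.97, did not pass (limma adjusted p = 0.177). In MT the 12 h mean was 6.61 ± 1.87 FPKM against 8.09 ± 1.92 FPKM at 0 h, a difference of -0.26 (limma adjusted p = 0.472). The difference between the lines in this 12 h change, tested as an interaction, was -0.73 (interval -1.46 to 0.00) and did not pass (limma adjusted p = 0.302). Over both lines LIN8 fell by 0.63 at 12 h (limma adjusted p = 0.0121).

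In EX at 12 h, Wiv-1 thus rose and LIN8 fell against 0 h. The interaction at 12 h passed for neither gene, being 0.70 for Wiv-1 (limma adjusted p = 0.578). The ratio of Wiv-1 to LIN8 in EX libraries 1, 2 and 3 was 0.329, 0.867 and 0.14 at 0 h, 0.651, 2.05 and 1.14 at 4 h, then 3.92, 1.97 and 2.65 at 12 h. In MT it was 2, 0.533 and 0.388 at 0 h, 5.66, 2.6 and 1.43 at 4 h, then 2.21, 2.8 and 0.805 at 12 h. LIN8 was the higher of the pair in all 3 EX libraries at 0 h, and Wiv-1 in all 3 at 12 h.

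The ratio was chosen after its values were seen. Against 0 h, the mean log2 ratio in EX was higher by 3 at 12 h and by 1.75 at 4 h, and in MT by 1.89 at 4 h and by 1.19 at 12 h. A two-sided exact permutation test of 3 against 3 libraries cannot go below p = 0.1, which was reached for EX at 12 h. The exact permutation p was 0.2 for the other 3 of these comparisons, and adjusted over 7 comparisons of the ratio it was 0.28 for all 4. Between lines the log2 ratio differed by -1.13 at 0 h (exact permutation p = 0.4), -1.26 at 4 h (p = 0.2) and 0.68 at 12 h (p = 0.5).

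**Figure D2:**
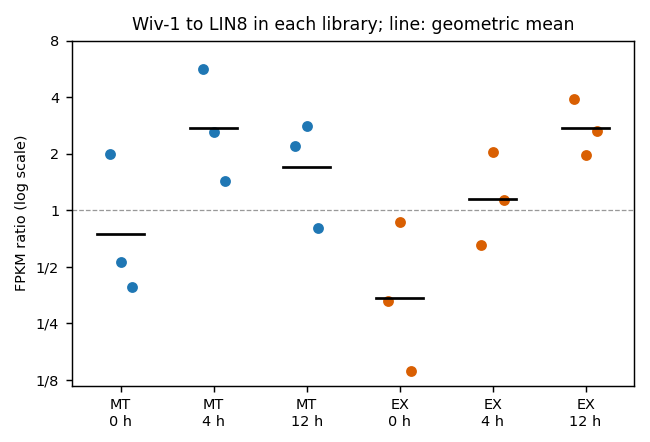
Ratio of Wiv-1 to LIN8 FPKM (y axis, log scale) in each library (points) of the 6 groups (x axis), with the geometric mean as a line. In EX the ratio is below 1 in every library at 0 h and between 1.97 and 3.92 at 12 h.

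The sucrose synthase genes SUS4 and sus3 did not pass the test in any comparison. SUS4 in MT libraries 1, 2 and 3 was at 4.01, 8.03 and 6.04 FPKM at 0 h, 2.56, 6.11 and 6.15 at 4 h, then 6.51, 5.49 and 6.86 at 12 h. In EX it was at 8.94, 8.06 and 11.45 FPKM at 0 h, 9.81, 8.6 and 8.45 at 4 h, then 5.82, 7.86 and 6.7 at 12 h. Every EX library was above every MT library at 0 h and at 4 h, and the lines overlapped at 12 h. Of all genes tested, 21.6% separated between the lines at 0 h and 22.1% at 4 h.

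EX minus MT for SUS4 was 0.61 at 0 h (interval 0.07 to 1.14, limma adjusted p = 0.164), 0.81 at 4 h (interval 0.28 to 1.35, limma adjusted p = 0.194) and 0.09 at 12 h. Over the 3 times it was 0.50 (interval 0.19 to 0.81, limma adjusted p = 0.0848). The lowest value at each of the first 2 times came from the MT libraries that stand apart, and without that pair the differences were 0.38 at 0 h, 0.48 at 4 h and 0.32 over the 3 times (limma adjusted p = 0.125). Leaving out 1 MT library turned some of them into calls: without MT 0 h library 2 the limma adjusted p was 0.0468 at 0 h and 0.0254 over the 3 times, and without MT 4 h library 2 the latter was 0.0468.

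For sus3, MT libraries 1, 2 and 3 held 35.82, 11.78 and 14.38 FPKM at 0 h, 13.17, 8.89 and 9.05 at 4 h, then 10.9, 11.01 and 7.14 at 12 h. In EX they held 11.01, 21.37 and 9.18 FPKM at 0 h, 8.13, 8.65 and 9.67 at 4 h, then 10.54, 17.73 and 8.27 at 12 h. A single library, MT 0 h library 1, was far above the rest, and in EX library 2 was the highest at 0 and 12 h. The MT difference at 12 h was -0.88 (interval -1.67 to -0.09, limma adjusted p = 0.104). The groups did not overlap, which was so for 33.8% of all genes tested. The difference was -0.41 without the pair that stands apart. The table lists 5 transcripts for sus3 and 1 or 2 for the other 5 genes, and a change in their use cannot be seen in a gene value.

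The gene for sucrose phosphate synthase, sps, stayed within its spread. Its FPKM in MT libraries 1, 2 and 3 was 41.48, 30.65 and 51.51 at 0 h, 26.02, 49.92 and 24.21 at 4 h, then 30.4, 34.18 and 35.85 at 12 h. In EX it was 33.05, 34.88 and 30.14 at 0 h, 38.32, 38.77 and 34.45 at 4 h, then 29.18, 48.51 and 40.03 at 12 h. Groups overlapped in all 9 comparisons of a pair of groups. Over the 11 comparisons of the design the differences were between -0.34 and 0.52, and the lowest limma adjusted p was 0.395. For EX at 12 h against 0 h the interval was -0.29 to 0.75.

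GolS2, the galactinol synthase, was low throughout. Its FPKM in MT libraries 1, 2 and 3 was 1.48, 3.67 and 2.15 at 0 h, 2.07, 3.31 and 3.06 at 4 h, then 3.24, 2.66 and 3.09 at 12 h. In EX it was 2.5, 2.87 and 2.77 at 0 h, 3.6, 4.01 and 3.05 at 4 h, then 3.96, 4.54 and 3.79 at 12 h. Every EX library at 4 and at 12 h was above every EX library at 0 h. Every EX library at 12 h was above every MT library at 12 h. Of all genes tested, 35.6% separated in EX at 4 h against 0 h and 36.5% at 12 h. Between the lines at 12 h, 12.2% did.

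The GolS2 difference in EX at 12 h was 0.46 (interval 0.04 to 0.87) and did not pass (limma adjusted p = 0.127). Over both lines it was 0.36 at 12 h (interval 0.07 to 0.65, limma adjusted p = 0.0613). With the pair of MT libraries that stands apart left out of the fit, the EX difference, which compares neither of them, was called (limma adjusted p = 0.0404). Under the same omission the difference over both lines was 0.26 and did not pass (limma adjusted p = 0.093), whereas without MT 0 h library 2 alone it was 0.48 and was called (limma adjusted p = 0.00481).

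The remaining 4 genes whose symbols matched were under the floor, and no test was run on them. GolS-1, the second galactinol synthase gene, was listed at 0 in 11 of 18 libraries and did not exceed 0.24 FPKM. Of the cell wall invertases, lin5, known from fruit and flowers, was listed at 0 in 17 libraries and at 0.03 FPKM, about 1 fragment, in EX 12 h library 3. LIN7, known from stamens and pollen, was at 0.06 to 0.85 FPKM. lin5 and LIN7 are neighbours on chromosome 9 with 1230 bases and 0 listed genes between them. Both were under the floor, whereas Wiv-1 and LIN8 are in the set because they reached it. The symbol lin9, on chromosome 8, was at 0.06 to 1.57 FPKM.

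Counted over the 6 genes, limma called 1 in MT at 4 h against 0 h, where 14.2% of all genes were called. In EX at 12 h against 0 h it called 2, 1 higher and 1 lower, against a background of 16.6%. It called 0 of 6 in MT at 12 h against 0 h and in EX at 4 h against 0 h, where the backgrounds were 21.2% and 11.3% and 1 gene each had an unadjusted p under 0.05, as did 35.1% and 23.8% of all genes. Few genes of any kind were called between 12 and 4 h, 0.554% in MT and 0.201% in EX. Of the 6 genes 0 were called there, with 0 in MT and 1 in EX at an unadjusted p under 0.05, against 12.4% and 6.63% of all genes.

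Between the lines limma called 0 of the 6 genes at 0, 4 and 12 h, with backgrounds of 3.17%, 0.297% and 0.134%, and 1, 2 and 1 of them had an unadjusted p under 0.05. Of all genes, 23.8%, 14.1% and 3.35% did. Over the 3 times together it called 0, with a background of 2.09% and 3 genes at an unadjusted p under 0.05, against 19.4% of all genes. The interaction was called for 0 genes at 4 h (background 0.101%) and 0 at 12 h (background 0.0224%), with 0 and 1 at an unadjusted p under 0.05, against 6.5% and 16.5% of all genes. Comparisons of 4 and 12 h within a line share the 0 h libraries, so their values are not independent. Over both lines, limma called 1 of 6 at 4 h and 2 of 6 at 12 h, against backgrounds of 24.5% and 28.9%. The median difference of the 6 genes was -0.14 in MT at 4 h and 0.04 in EX at 12 h, against -0.01 and 0.04 over all genes tested.

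**Figure D3:**
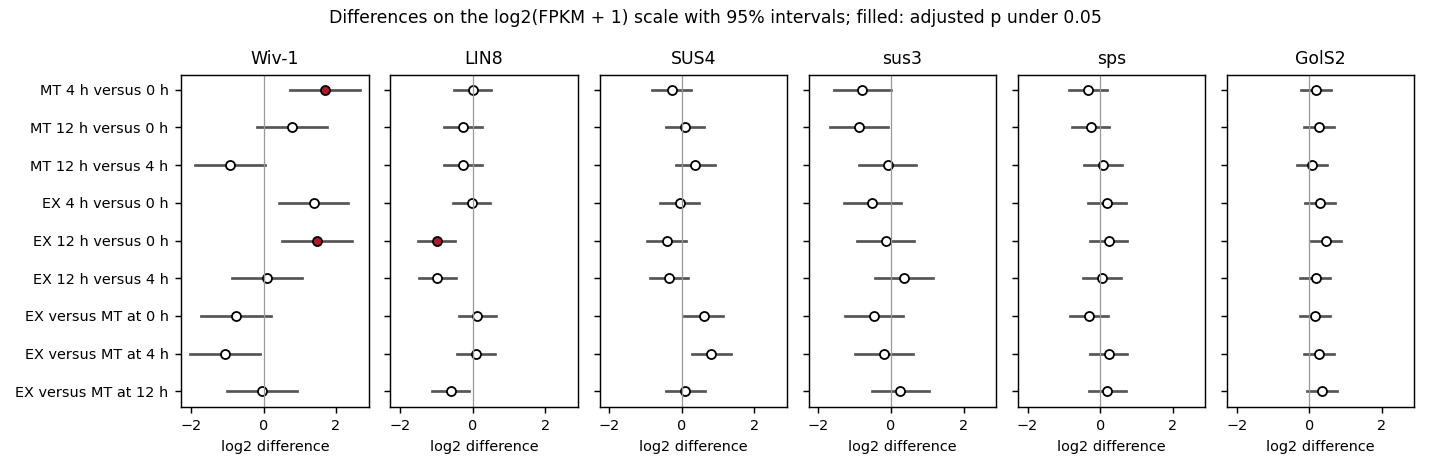
Differences on the log2(FPKM + 1) scale (x axis) with 95% intervals for the 6 genes over the 9 comparisons of a pair of groups; filled points passed the test. The called differences are Wiv-1 in MT at 4 h (1.70) and in EX at 12 h (1.48), and LIN8 in EX at 12 h (-0.99).

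AI and LOC543961, which the symbol rule missed, were found by RefSeq synonyms that fit the rule. The inhibitor gene LOC543729 was added by its RefSeq name, CIF1. These genes were chosen with their values in view. Family genes with neither such a symbol nor such a synonym are not covered here. AI, the vacuolar acid invertase that RefSeq also lists as TIV1, lay on chromosome 3 from 53851118 to 53855304. In MT libraries 1, 2 and 3 it was at 91.99, 33.14 and 53.18 FPKM at 0 h, 45.33, 27.88 and 25.23 at 4 h, then 12.62, 16.99 and 19.61 at 12 h. In EX it was at 37.12, 31.73 and 32.65 FPKM at 0 h, 21.29, 17.21 and 18.61 at 4 h, then 10.89, 28.61 and 29.84 at 12 h. Its levels at 0 h were thus above those of Wiv-1 and LIN8 in every library. In both lines every library at 12 h was below every one at 0 h, and in EX so was every library at 4 h. Of all genes tested, 33.8% in MT and 36.5% in EX separated at 12 h against 0 h, and 35.6% in EX at 4 h.

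AI fell by 1.70 in MT at 12 h (standard error 0.36, limma adjusted p = 0.00464), a call that held in every alternative run. In EX at 12 h the difference was -0.65 and did not pass (limma adjusted p = 0.251), nor did the interaction at 12 h, 1.05 (limma adjusted p = 0.32). Vacuolar AI was therefore lower, and cell wall Wiv-1 higher, over both lines at 12 h, with differences of -1.17 (limma adjusted p = 0.00306) and 1.13.

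LOC543729, which RefSeq names CIF1, an inhibitor of cell wall invertase, was also lower at 12 h. It was at 67.19, 59.06 and 137.91 FPKM in MT libraries 1, 2 and 3 at 0 h, 69.54, 44.53 and 53.36 at 4 h, then 20.9, 28.84 and 32.47 at 12 h. In EX it was at 74.42, 64.65 and 100.73 FPKM at 0 h, 39.33, 47.69 and 39.98 at 4 h, then 29.11, 59.69 and 53.38 at 12 h. All MT and EX libraries at 12 h were below all libraries of their line at 0 h. Of all genes tested, 33.8% in MT and 36.5% in EX separated between these times.

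CIF1 fell by 1.57 in MT at 12 h (standard error 0.31, limma adjusted p = 0.00284), and over both lines by 0.73 at 4 h (limma adjusted p = 0.0256) and by 1.17 at 12 h (limma adjusted p = 0.000977). The 4 h call over both lines was lost on leaving out any of 5 of 12 libraries. In EX at 12 h the difference of -0.78 did not pass (limma adjusted p = 0.104). LOC543961, a sucrose synthase with the RefSeq synonyms SUS1 and sus2, fell in MT from 8.94 ± 3.56 to 4.61 ± 0.966 FPKM at 12 h (SD, n = 3), a difference of -0.78 (limma adjusted p = 0.0345). That call was lost without MT 0 h library 1 (0.163), MT 12 h library 1 (0.118) or MT 12 h library 2 (0.1), in the compared libraries only (0.122), and without the pair that stands apart (difference -0.51, 0.152).

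A wider list of sugar genes by symbol held hexose kinases, the invertase inhibitor VIF, sugar transporters, starch genes, genes of inositol metabolism (IMP1, IMP2, IMP3 and MIOX) and the kinase complex genes SNF1 and SNF4. No raffinose synthesis gene carried a matching symbol. It had 33 genes, of which 30 were tested. Called higher and lower were 6 and 1 genes in MT at 4 h and 4 and 4 genes at 12 h, and in EX 3 and 1 genes at 4 h and 6 and 1 genes at 12 h, all against 0 h. These were 23.3% and 26.7% of the list in MT and 13.3% and 23.3% in EX, beside 14.2%, 21.2%, 11.3% and 16.6% of all genes. The 3 genes higher in EX at 4 h include BAM1, whose symbol alone does not settle that it is a beta-amylase gene. Without the pair of MT libraries that stands apart, ht1 and SFP4 were no longer called in MT at 4 h (limma adjusted p = 0.0548 and 0.0692). Single libraries mattered too. In EX at 4 h, ht2 and BAM1 were each lost on leaving out any of 5 of 6 libraries, and SFP4 any of 3. At 12 h, ht1 was lost for any of 4 of 6 libraries in each line, and ht2 for 3 in EX and 0 in MT. The calls of bmy3 within each line were lost for 0. Between the lines limma called 0 of the 30 at each time, and 7, 8 and 2 of them had an unadjusted p under 0.05 at 0, 4 and 12 h, as did 23.8%, 14.1% and 3.35% of all genes. The vacuolar invertase inhibitor VIF, with a highest group mean of 20.3 FPKM, was not called in any of these comparisons.

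The largest rise on that list was that of ht2, a hexose transporter, which takes up the sugars that invertase releases. It was at 12.76, 5.32 and 2.27 FPKM in MT libraries 1, 2 and 3 at 0 h, 69.45, 45.14 and 19.78 at 4 h, then 70.26, 68.32 and 19.05 at 12 h. In EX it was at 7.25, 21.51 and 4.64 FPKM at 0 h, 30.19, 47.97 and 64.36 at 4 h, then 87.19, 57.04 and 37.21 at 12 h. No library at 4 or 12 h overlapped with its line's 0 h group.

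Over both lines ht2 rose by 2.41 at 4 h (limma adjusted p = 0.00121) and by 2.66 at 12 h (limma adjusted p = 0.000464). The hexose transporter ht1 rose by 1.44 and 1.33 (limma adjusted p = 0.00184 and 0.00281). bmy3, named as a beta-amylase, the enzyme type that releases maltose from starch, rose by 1.58 and 1.56 over both lines. It was the one gene of the list called higher within each line at both times in every alternative run. SFP4, a sugar transporter family gene, fell by 0.51 and 0.70 (limma adjusted p = 0.000689 and 3.18e-05).

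**Figure D4:**
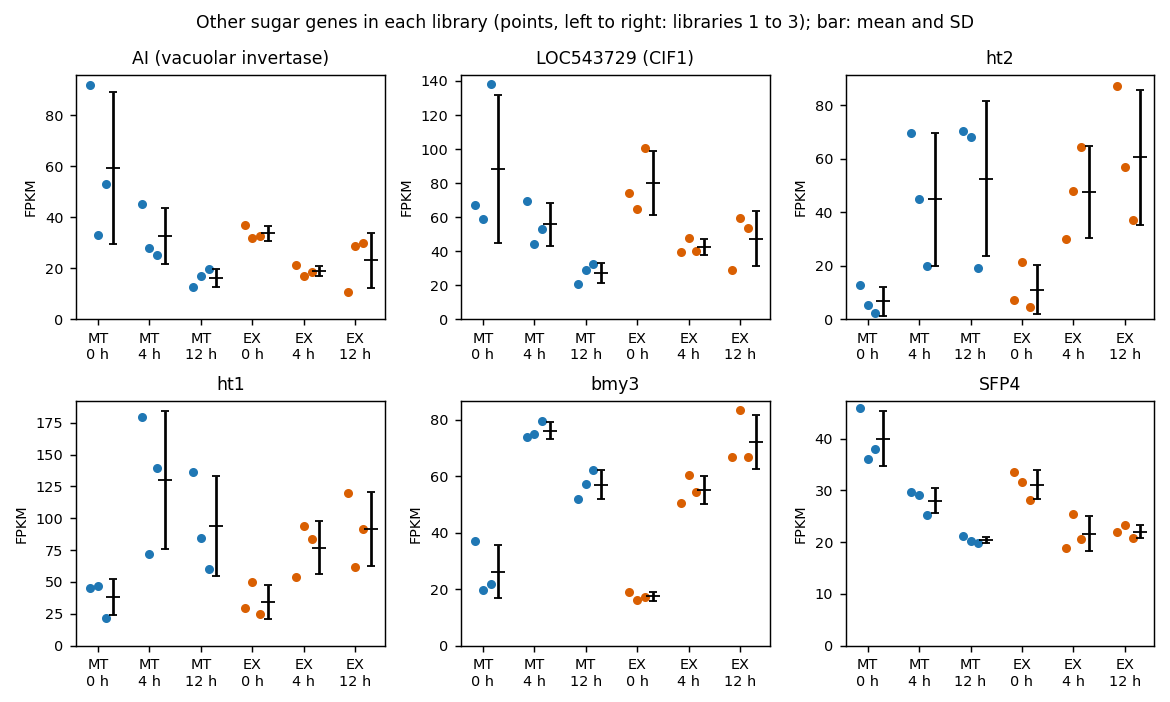
FPKM (y axis, linear, 1 panel per gene) of AI, LOC543729 (CIF1), ht2, ht1, bmy3 and SFP4 in each library (points) of the 6 groups (x axis), with the group mean and SD. AI and CIF1 are lowest in MT at 12 h (16.4 and 27.4 FPKM), while ht2 and bmy3 are above 0 h at 4 and 12 h in both lines.

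Wiv-1 and ht2 also varied together between libraries of the same group. Pearson's r of log2(FPKM + 1) was 0.78 over the 18 libraries and 0.91 for the deviations from the group means. With ht1 these were 0.86 and 0.66, with LIN8 -0.41 and -0.72, and with AI -0.20 and 0.15. The 18 points share 6 groups and the composition of each library, and the values are given as a description. MT 12 h library 3, for example, was the lowest of its group for both Wiv-1 (6.94 FPKM) and ht2 (19.05 FPKM), and EX 0 h library 2 the highest of its group for both (7.42 and 21.51 FPKM).

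**Figure D5:**
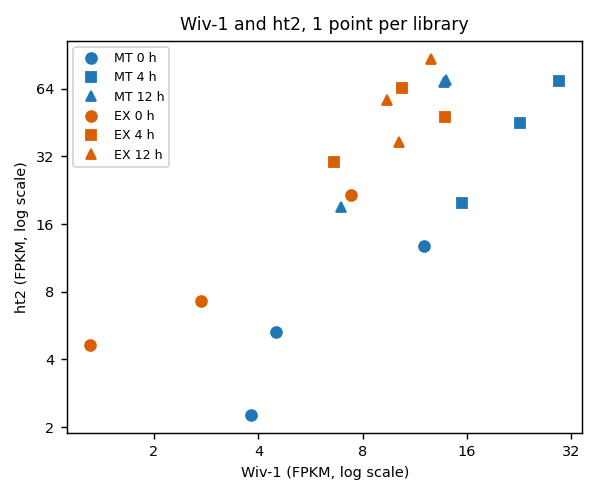
Wiv-1 FPKM (x axis, log scale) against ht2 FPKM (y axis, log scale), 1 point per library, marked by group; MT 12 h libraries 1 and 2 nearly coincide. Most libraries at 0 h lie at the lower left. MT 0 h library 1 does not, with 12.02 FPKM of Wiv-1. EX 0 h library 2 (Wiv-1 7.42 and ht2 21.51 FPKM) is above MT 12 h library 3 (6.94 and 19.05 FPKM) for both genes. Within groups the libraries with more Wiv-1 mostly have more ht2.

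Among the 6 genes themselves, r over the 18 libraries was between -0.69 (SUS4 with Wiv-1) and 0.52 (SUS4 with GolS2). Among 1126 genes with a symbol, those most like Wiv-1 were PMT5 (r = 0.944), ME2 (0.921) and NIM1 (0.914). For LIN8 they were MHX (0.842), p69d (0.783) and AO1 (0.767), and for sus3 FRO1 (0.89), ACS3 (0.874) and hb-1 (0.859). These are correlations over 18 libraries that share depth and composition, and they say nothing of a shared function.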

How the data were processed

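Leaf RNA was prepared with Trizol and sequenced from BGI500 libraries, per the labels' protocols. Tools listed in the submitters' processing notes, with no role, are RSEM 1.2.12, DESeq2 1.4.5, Bowtie2 2.2.5 and HISAT2 2.0.4, and they give no genome build. The authors deposited FPKM per gene and library, and log2 ratios with p-values and q-values for groups, per the file headers. A repeated set of 18 FPKM columns was not used.

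The 17870 genes averaging 1 FPKM or more in any of the 6 groups were transformed to log2(FPKM + 1). limma 3.58.1 in R 4.3.3 was fitted over 18 libraries with 6 group means and a mean-variance trend (prior degrees of freedom 3.18). It was tested on simulated data with known changes in EX at 12 h. Of 100 genes changed by 1, 67 were recovered, and of 100 changed by 2, 94 were. Uncalled changes of 1 or less, and larger ones in genes that vary more between libraries, may thus have been missed. For example, Wiv-1 differed by 1.38 in EX at 4 h and was not called. The simulated noise was independent between genes and libraries, whereas real libraries can deviate in many genes together, as the pair that stands apart does. The genes changed there were higher than GolS2, for which the simulation gives no recovery. Two-sided p-values were adjusted by Benjamini-Hochberg within each of 11 comparisons, plus 3 added over lines or times. Strand use is not stated, and reads of near-identical family members may be uncertain.

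RefSeq names came from a table of assembly SLM_r2.1, which held 21649 identifiers and was used for names only. Genes and lists were chosen with earlier results of these data known. Statistics were planned for each gene called and for up to 3 genes per direction of the sugar list, from which 1 symbol, PHS1, was dropped as a terpene synthase by its RefSeq synonym. Intervals for uncalled genes were added. Deviations of same-numbered libraries from their group means correlated over 0.1 for all 3 numbers in 1 of 9 comparisons. This was EX against MT at 12 h, with correlations of 0.57, 0.23 and 0.41. Elsewhere single numbers ranged from -0.42 to 0.46. The 0.46 was that of MT 0 h and 4 h library 1, the pair that stands apart. No library of a group shared over 1.96% of non-zero values with another, so none was a copied column. Repeats from the same RNA or plant cannot be seen in this way.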

Additional observations from a re-analysis of the deposited data

How the results depend on the processing

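Results were recomputed under 8 alternatives and without each library in turn, and no direction reversed. The count of genes called in MT at 4 h (1 of 6) became 0 in a fit of the compared libraries only and was 0 to 2 leaving out single libraries. In MT at 12 h (0) it was 0 to 2 leaving out single libraries, the 2 without MT 0 h library 2, where sus3 fell by 1.18 (limma adjusted p = 0.0363). In EX at 4 h (0) it was 1 without the pair of MT libraries that stands apart (Wiv-1 adjusted p = 0.0355, limma) and 0 to 1 leaving out single libraries. In EX at 12 h (2) it was 1 with no filter on low values and 1 with the compared libraries only (Wiv-1 limma adjusted p = 0.0513 and 0.0707), and 1 to 2 leaving out single libraries. Between lines at 0 h (0) it was 0 to 1, the 1 being SUS4 without MT 0 h library 2 (limma adjusted p = 0.0468). Over both lines at 4 h (1) it was 1 to 3, and between lines over the 3 times (0) it was 0 to 2, both highest without MT 0 h library 2. Counts over all genes moved more. The 2531 called in MT at 4 h were 503 to 2621 under the other alternatives and 1813 to 3104 leaving out single libraries. The 567 between lines at 0 h were 25 to 582 under the other alternatives and 85 to 3375 leaving out single libraries. A floor of 5 FPKM in at least 3 libraries gave no value for GolS2. Same-numbered libraries did not all pair outside EX against MT at 12 h, where the replicate block left the count at 0. Of 18 libraries, 7 correlated best with their own number. In the other comparisons with the block, 1 gene was called in EX at 4 h (Wiv-1, limma adjusted p = 0.0393) and GolS2 was called over both lines at 12 h (limma adjusted p = 0.0465), and no other call of the 6 genes changed. Depth limits GolS-1, lin5 and LIN7 most. For lin5 and LIN7, 1 fragment was worth about 0.03 FPKM. The lowest non-zero value of GolS-1, a shorter transcript, was 0.05 FPKM.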

Other observations

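The authors' deposited table also lists a log2 ratio and a q-value for each comparison, without the method in the sources used here. For sus3 in MT at 4 h against 0 h, the authors' deposited table gives -0.98 with a q of 2.14e-105, while the libraries of both groups overlap (8.89 to 13.17 against 11.78 to 35.82 FPKM) and limma gives -0.79 with an adjusted p of 0.178. For Wiv-1 in EX at 4 h, the authors' deposited table gives 1.45 with a q of 1.21e-64, against 1.38 and an adjusted p of 0.063 from limma, with overlapping libraries. For sps in MT at 4 h, the authors' deposited table gives -0.32 with a q of 5.23e-35, against -0.34 and a limma adjusted p of 0.395. The q-values of the deposited table are thus far below the adjusted p-values from limma for these 3 examples, and the cause was not tested.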
